A study of Mus musculus with 6 samples.

Results

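The oligoadenylate synthetase genes of the mouse were examined in splenic CD8+ T cells after hematopoietic stem cell transplantation (HSCT). The set was defined by name as Oas1a, Oas1g, Oas2, Oas3, Oasl1 and Oasl2. Of these 6 genes, 5 had a row in the deposited table of 14750 genes, and Oas1g was not analysed here. The members were proposed with their values in these libraries known, so their levels and differences are given as a description and without a test. RNA had been sequenced in 6 libraries. The labels gave 3 as allo-HSCT, in which a BALB/c host received cells of a C57BL/6 donor, and 3 as syn-HSCT, in which donor and host were both BALB/c. Every host was thus BALB/c, CD8+ T cells had been taken from spleen suspensions with an isolation kit in both groups, and RNA had been depleted of ribosomal RNA. The sources used here state neither the age and sex of the mice nor the conditioning or the time since transplantation. They also do not say whether each library is a different animal. Errors and p-values therefore cover the spread among these 3 libraries a group, possibly technical.

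The values are FPKM, fragment counts scaled to exon length and sequencing depth. The fragment totals recovered from them were 15154000 to 16351000 in allo-HSCT-labelled libraries and 15310000 to 18715000 in the syn-HSCT-labelled ones. Genes that differ between the strains ran against the labels. H2-Ea-ps, a class II gene transcribed in BALB/c and silent in C57BL/6 mice, stood at 1955 FPKM in the allo-HSCT-labelled libraries and 4.76 FPKM in the syn-HSCT-labelled ones, and Ly6a, higher on T cells in C57BL/6 than in BALB/c mice, at 28.6 FPKM with the allo-HSCT label and 332 FPKM with the syn-HSCT label. The sample titles carry the letter S for the allo-HSCT-labelled libraries and A for the syn-HSCT-labelled ones. Each direction below is therefore one between libraries as labelled. By these labels the donor strain differs between the groups together with the type of transplantation. Effects of strain and of transplantation type thus cannot be told apart here. The groups also differed in markers of other cells. Markers are called here at a limma adjusted p under 0.05 (Benjamini-Hochberg). Of the 12404 genes tested (at least 1 FPKM in at least 3 libraries), 34.7% were called higher in the allo-HSCT-labelled libraries and 33% lower. Of 8 dendritic cell markers all 8 were called higher in the allo-HSCT-labelled libraries, with summed levels of 441 to 468 FPKM with the allo-HSCT label against 77.1 to 81.6 FPKM with the syn-HSCT label. The same held for 7 of 7 plasmacytoid dendritic cell markers (32.9 to 38.2 FPKM with the allo-HSCT label against 4.43 to 6.08 FPKM with the syn-HSCT label, with Ly6d listed at 0 in every syn-HSCT-labelled library), for 9 of 9 tested monocyte and macrophage markers (341 to 342 FPKM with the allo-HSCT label against 41.4 to 42.5 FPKM with the syn-HSCT label) and for 8 of 9 neutrophil markers (1858 to 1975 FPKM with the allo-HSCT label against 91.9 to 100 FPKM with the syn-HSCT label). Erythroid markers, 4 of 4 tested called higher, summed to 57.5 to 70.1 FPKM with the allo-HSCT label against 1.5 to 1.71 FPKM with the syn-HSCT label. Other lists were mixed. Of 4 NK cell markers 3 were called higher and 1 lower, and their sums of 87.4 to 91.6 FPKM with the allo-HSCT label against 19.9 to 20.9 FPKM with the syn-HSCT label rest on Tyrobp, which myeloid cells share, at 77.7 to 83.2 FPKM with the allo-HSCT label against 5.13 to 6.27 FPKM with the syn-HSCT label. Klrb1c, the gene of NK1.1, was called lower, at 0.537 to 0.629 FPKM with the allo-HSCT label against 11.2 to 11.5 FPKM with the syn-HSCT label. Of 3 CD4 T cell markers 2 were called higher and 1 lower, with sums of 11.2 to 12.0 FPKM with the allo-HSCT label against 6.4 to 7.0 FPKM with the syn-HSCT label. The plasma cell sums overlapped at 35.5 to 41.0 FPKM with the allo-HSCT label against 35.0 to 37.3 FPKM with the syn-HSCT label, but Jchain was called higher (7.63 to 8.91 FPKM with the allo-HSCT label against 1.91 to 2.42 FPKM with the syn-HSCT label) and Xbp1 lower (26.6 to 30.1 FPKM with the allo-HSCT label against 31.9 to 34.8 FPKM with the syn-HSCT label). The 2 of 7 B cell markers in the table overlapped in sum at 7.16 to 8.42 FPKM with the allo-HSCT label against 7.69 to 8.07 FPKM with the syn-HSCT label. Of the 8 CD8 T cell markers 2 were called higher (Cd8a, at 343 to 362 FPKM with the allo-HSCT label against 239 to 241 FPKM with the syn-HSCT label, and Lck), 5 lower and 1 (Cd8b1) neither, with sums of 1927 to 2040 FPKM with the allo-HSCT label against 2269 to 2305 FPKM with the syn-HSCT label. The part of these cells in the values that follow was not tested, and in such bulk samples fewer cells of a type and less RNA per cell cannot be told apart.

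Oligoadenylate synthetases are interferon-induced enzymes of the antiviral defence. On binding double-stranded RNA they link ATP into short oligoadenylates, which act as second messengers of that defence. The mouse carries an expanded cluster of Oas1 genes beside Oas2 and Oas3, and a separate pair of synthetase-like genes, Oasl1 and Oasl2.

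All 7 Oas loci with a row lie on chromosome 5 in GENCODE vM21 (GRCm38): Oasl2 and Oasl1 side by side in one cluster, and Oas2, Oas3, Oas1c, Oas1b and Oas1a, in this order, in another. The 250 bases before the annotated start were found in RefSeq (GRCm38.p6, the C57BL/6J assembly) for 4 of the 5 members. They are shown because the members differed in direction between the groups. The core of the interferon-stimulated response element, TTTC and TTTC with 2 bases of any kind between them, was searched on both strands, and its matches are in capitals. It occurred in 2.98% of all 32851 windows of this length. Of 43 listed antiviral interferon-stimulated genes 36 had a window, and 15 of these held the core in at least 1 of their windows. The first share is per window and the second per gene, so they are not directly comparable. The windows are chr5:120907526-120907775 on the minus strand for Oas1a, chr5:120777660-120777909 on the minus strand for Oas3, chr5:114922990-114923239 on the plus strand for Oasl1 and chr5:114896684-114896933 on the plus strand for Oasl2, each printed 5′ to 3′ along the gene.
Oas1a: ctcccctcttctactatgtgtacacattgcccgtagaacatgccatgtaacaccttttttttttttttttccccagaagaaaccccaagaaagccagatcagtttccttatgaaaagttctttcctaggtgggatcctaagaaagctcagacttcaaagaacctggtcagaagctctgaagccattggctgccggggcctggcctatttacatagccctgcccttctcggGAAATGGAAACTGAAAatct
Oas3: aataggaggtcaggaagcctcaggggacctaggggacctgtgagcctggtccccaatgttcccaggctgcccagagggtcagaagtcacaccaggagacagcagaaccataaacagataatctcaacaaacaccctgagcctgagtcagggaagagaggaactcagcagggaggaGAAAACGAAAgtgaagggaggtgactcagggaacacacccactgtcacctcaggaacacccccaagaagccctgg
Oasl1: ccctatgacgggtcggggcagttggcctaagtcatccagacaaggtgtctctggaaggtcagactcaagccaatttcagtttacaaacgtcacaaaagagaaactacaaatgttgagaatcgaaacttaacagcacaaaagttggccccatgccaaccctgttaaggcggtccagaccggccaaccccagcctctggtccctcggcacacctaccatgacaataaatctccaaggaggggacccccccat
Oasl2: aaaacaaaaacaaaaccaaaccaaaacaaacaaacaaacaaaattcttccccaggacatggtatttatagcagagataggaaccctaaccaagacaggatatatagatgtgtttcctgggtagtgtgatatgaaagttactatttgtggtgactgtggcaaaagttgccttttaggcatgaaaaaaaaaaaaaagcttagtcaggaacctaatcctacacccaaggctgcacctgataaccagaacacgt
Oas1a held 2 matches that overlap each other, GAAATGGAAA from 20 to 11 and GAAACTGAAA from 14 to 5 bases before the start. Oas3 held 1 match, GAAAACGAAA, from 75 to 66 bases before the start. No match lay in the Oasl1 and Oasl2 windows, which says only that these letters are not in these 250 bases. The motif TTTCNTTTC, found in 2.68% of all windows, was in none of the 4. The gamma-activated site TTCNNNGAA, found in 7.02% of all windows, was in the Oas1a window alone among the 4, as TTCAAAGAA from 98 to 90 bases before the start, and overlapped neither of the other matches.

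The 5 members differed in direction. Oas2, Oas3, Oasl1 and Oasl2 were higher in every allo-HSCT-labelled library than in any labelled syn-HSCT, and Oas1a was lower in every one. All 5 passed the filter on low values (at least 1 FPKM in at least 3 libraries), but Oas3 alone would have passed in either group, and the other 4 passed through the group where they are high. The groups did not overlap at any of the 5, 4 higher and 1 lower. Of the 12404 genes tested the groups did not overlap at 72.3%, with 37% higher and 35.3% lower. By limma with Benjamini-Hochberg adjustment 67.6% of these genes were called at an adjusted p under 0.05, 34.7% higher and 33% lower. That threshold is used above and below for genes that are no members. Because the members were chosen with this contrast known, nothing is read from their count.

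**Figure D1:**
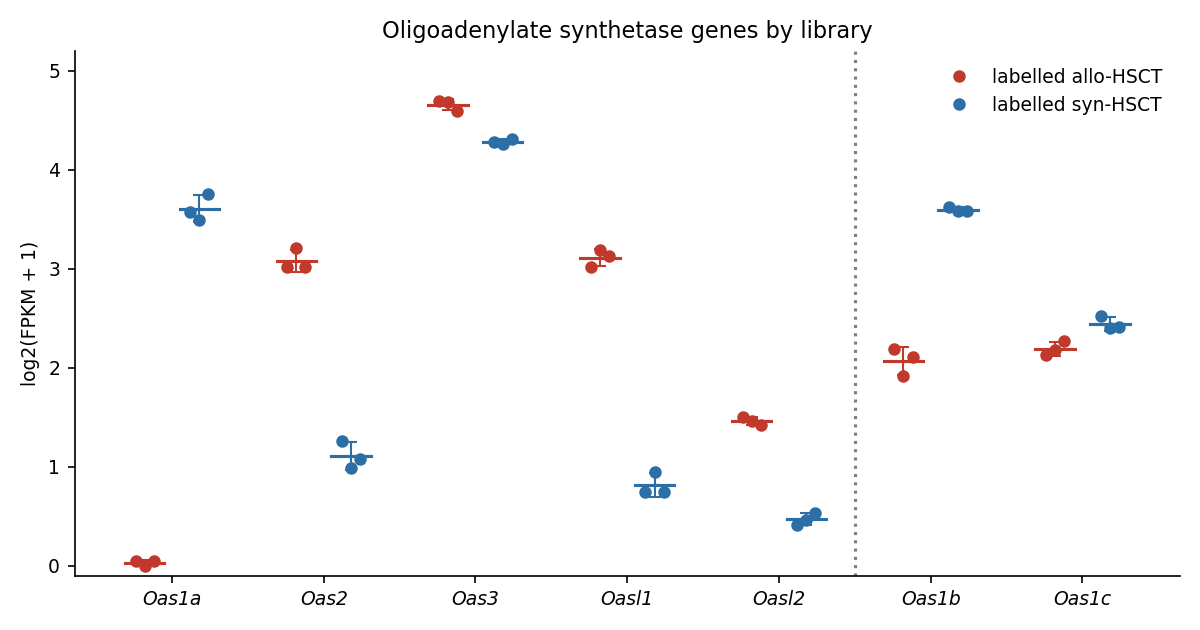
Levels of the 5 members and, right of the dotted line, of 2 other Oas loci, as log2(FPKM + 1) for each library (points), with the mean (line) and SD (bars) of 3 libraries a group. Oas1a lies near 0 in the allo-HSCT-labelled libraries and between 10.2 and 12.5 FPKM in the syn-HSCT-labelled ones, while Oas2, Oas3, Oasl1 and Oasl2 are higher in the allo-HSCT-labelled libraries.

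Oas1a (ENSMUSG00000052776, chr5:120896256-120907521, minus strand) encodes a catalytically active synthetase, and its measured level was near 0 FPKM in the allo-HSCT-labelled libraries. It stood at 0.0341, 0 and 0.0350 FPKM in replicates 1 to 3 labelled allo-HSCT, against 10.9, 10.2 and 12.5 FPKM in replicates 1 to 3 labelled syn-HSCT. These values are worth 1, 0 and 1 recovered fragments with the allo-HSCT label, against 315, 349 and 440 with the syn-HSCT label. The count of 0 allows up to 0.0973 FPKM in that library (3 fragments, counting error only). The groups are far apart and the libraries within each are close. Summed over a group, 2 fragments with the allo-HSCT label stood against 1104 with the syn-HSCT label, a ratio of 0.00201 per fragment sequenced (95% exact interval 0.000243 to 0.00726, which covers counting error only). The log2(FPKM + 1) difference, a scale that compresses low values, was -3.57 ± 0.09 (SE). Few genes showed such a pattern: 11 of 14750 genes averaged under 0.1 FPKM in the allo-HSCT-labelled libraries and at least 5 FPKM in the syn-HSCT-labelled ones, and 12 did the reverse. With at least 10 FPKM required in the higher group, which Oas1a also met, 6 genes did so and 1 the reverse. These bounds were set after the values had been seen. Beside Oas1a the 11 held Trim12a, Klrb1b, Gzmf and Npnt, and the other 6 carried Gm model names or the pseudogene name Hmgb1-ps8. Read sharing limits what the name Oas1a covers, since 57.6% of the 50-base stretches of its GENCODE transcripts also occur in Oas1g transcripts. How reads that match both were counted is not given in the sources used here. Whether reads of both donor strains map alike to this gene was not tested.

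Oas2 and Oas3 encode larger synthetases built from repeated synthetase units. Oas2 (ENSMUSG00000032690, chr5:120730333-120749853, minus strand) was at 7.09, 8.23 and 7.09 FPKM in replicates 1 to 3 labelled allo-HSCT, against 1.39, 0.982 and 1.12 FPKM in replicates 1 to 3 labelled syn-HSCT. Its lowest allo-HSCT-labelled library was well above its highest labelled syn-HSCT. The mean was 7.47 ± 0.66 FPKM with the allo-HSCT label against 1.16 ± 0.21 FPKM with the syn-HSCT label (SD, n = 3 each), a 6.42-fold ratio, with a log2 difference of 1.97 ± 0.10 (SE). Oas3 (ENSMUSG00000032661, chr5:120753098-120777661, minus strand) was at 24.8, 24.6 and 23.1 FPKM in replicates 1 to 3 labelled allo-HSCT, against 18.4, 18.1 and 18.8 FPKM in replicates 1 to 3 labelled syn-HSCT. The gap between the groups was small but larger than the spread within either. The mean was 24.2 ± 0.96 FPKM with the allo-HSCT label against 18.4 ± 0.33 FPKM with the syn-HSCT label (SD, n = 3 each), a ratio of 1.31, and the log2 difference was 0.37 ± 0.04 (SE). Oas3 was thus the most abundant member per length in all 6 libraries and, of the 5, the one that differed least. It rested on 2471 to 2842 fragments in the allo-HSCT-labelled libraries and 1996 to 2482 in the syn-HSCT-labelled ones. Oas2 rested on 478 to 599 fragments with the allo-HSCT label and 79 to 95 with the syn-HSCT label. Oas2 shared no 50-base stretch with another gene, and Oas3 shared 0.31%.

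Oasl1 (ENSMUSG00000041827, chr5:114923240-114937915, plus strand) encodes a synthetase-like protein with ubiquitin-like repeats that restrains translation of Irf7 mRNA in the mouse. It was at 7.10, 8.14 and 7.72 FPKM in replicates 1 to 3 labelled allo-HSCT, against 0.676, 0.933 and 0.676 FPKM in replicates 1 to 3 labelled syn-HSCT. The groups lie far apart. Its mean of 7.65 ± 0.52 FPKM with the allo-HSCT label against 0.762 ± 0.15 FPKM with the syn-HSCT label (SD, n = 3 each) gave the largest ratio in favour of the allo-HSCT-labelled libraries among the members, 10.04, with a log2 difference of 2.30 ± 0.09 (SE). Oasl2 (ENSMUSG00000029561, chr5:114896936-114912234, plus strand), which lies next to it, encodes a related protein and was the lowest of the 4 members that were higher in the allo-HSCT-labelled libraries. It was at 1.83, 1.76 and 1.68 FPKM in replicates 1 to 3 labelled allo-HSCT, against 0.328, 0.382 and 0.444 FPKM in replicates 1 to 3 labelled syn-HSCT. Again no library of one group reached the other. The means were 1.76 ± 0.08 FPKM with the allo-HSCT label against 0.385 ± 0.06 FPKM with the syn-HSCT label (SD, n = 3 each), a 4.56-fold ratio, and the log2 difference was 0.99 ± 0.08 (SE). This log2 difference changed with the pseudocount and the scaling. It was 2.17 with a pseudocount of 0.01 and 0.60 after quantile normalization. Oasl1 rested on 288 to 347 fragments and Oasl2 on 162 to 183 in the allo-HSCT-labelled libraries. In the syn-HSCT-labelled ones they were few, 27 to 44 for Oasl1 and 32 to 53 for Oasl2.

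The other Oas1 genes with a row, Oas1b and Oas1c, lie between Oas3 and Oas1a and were chosen for description after their values were seen. Their p-values are therefore part of the description, and nothing is read from them. Oas1b, the flavivirus resistance gene of the mouse, is truncated by a stop codon in most laboratory strains, and GENCODE lists it as a polymorphic pseudogene. It was at 3.55, 2.76 and 3.31 FPKM in replicates 1 to 3 labelled allo-HSCT, against 11.3, 10.9 and 11.0 FPKM in replicates 1 to 3 labelled syn-HSCT. It fell 3.46-fold by the ratio of means (log2 difference -1.53 ± 0.08, SE; limma adjusted p = 4.21e-06), the same direction as Oas1a. Oas1c was at 3.37, 3.53 and 3.81 FPKM in replicates 1 to 3 labelled allo-HSCT, against 4.75, 4.28 and 4.31 FPKM in replicates 1 to 3 labelled syn-HSCT. The groups did not overlap, but the gap was small: the log2 difference was -0.25 ± 0.07 (SE; limma adjusted p = 0.0136). Oas1b and Oas1c transcripts shared 2.78% and 9.82% of their 50-base stretches with other genes.

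The order of the members by FPKM differed between the groups. In the allo-HSCT-labelled libraries it was Oas3, then Oasl1 and Oas2, whose libraries overlapped, then Oasl2 and last Oas1a. In the syn-HSCT-labelled ones it was Oas3, Oas1a, Oas2, Oasl1 and Oasl2, and no neighbours in that order overlapped. Summed over the 5 members, the level was 40.9, 42.7 and 39.6 FPKM in replicates 1 to 3 labelled allo-HSCT, against 31.8, 30.7 and 33.5 FPKM in replicates 1 to 3 labelled syn-HSCT. With Oas1b and Oas1c added, the sums overlapped, at 46.7 to 49.0 FPKM with the allo-HSCT label against 45.9 to 48.8 FPKM with the syn-HSCT label. Oas3 gave 57.6% to 60.7% of the member sum in the allo-HSCT-labelled libraries and 56.1% to 59.1% in the syn-HSCT-labelled ones. With the allo-HSCT label Oas1a gave at most 0.0884%, Oas2 17.3% to 19.3% and Oasl1 17.4% to 19.5%. With the syn-HSCT label Oas1a gave 33.4% to 37.3%, Oas2 3.20% to 4.39% and Oasl1 2.02% to 3.05%. The ratio of Oas2 to Oasl1 was 0.918 to 1.01 in the allo-HSCT-labelled libraries and 1.05 to 2.06 in the syn-HSCT-labelled ones.

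**Figure D2:**
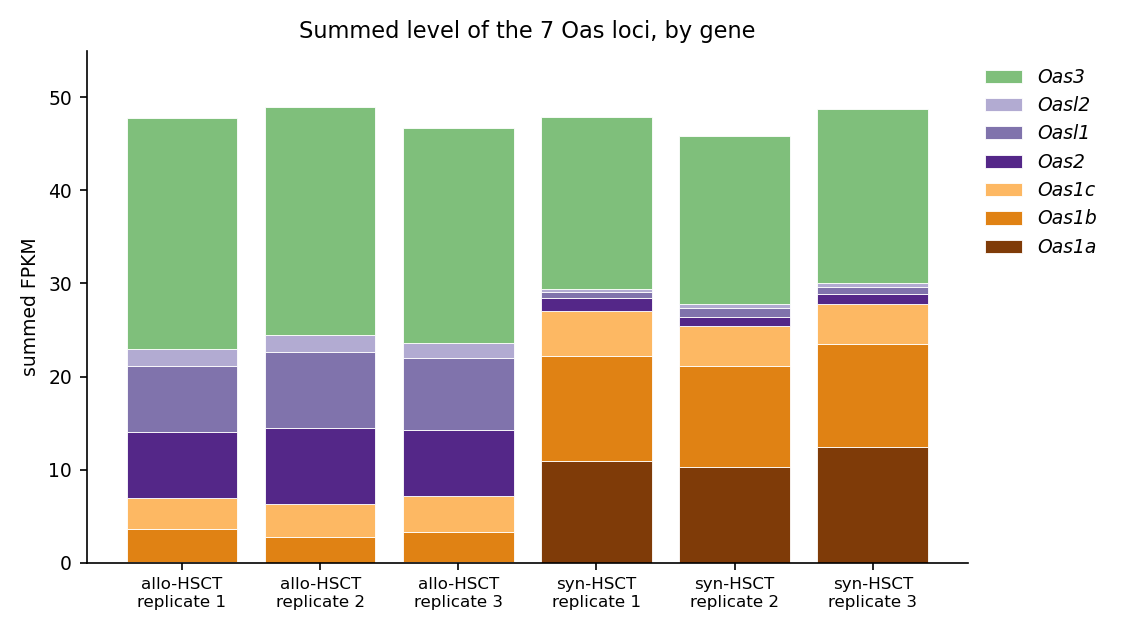
Summed FPKM of the 7 Oas loci in each library, stacked by gene, with allo-HSCT-labelled libraries on the left. The totals lie between 45.9 and 49.0 FPKM in all 6 libraries. Oas1a and Oas1b (brown and orange) make up a large share in the syn-HSCT-labelled libraries, and Oas2 and Oasl1 (dark and mid purple) in the allo-HSCT-labelled ones.

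Of 3 other genes listed with the oligoadenylate pathway, 2 were tested and 1 was called, lower, with a median log2 difference of -0.12. Pde12, whose product degrades oligoadenylates, averaged 5.35 ± 0.18 FPKM with the allo-HSCT label against 6.09 ± 0.28 FPKM with the syn-HSCT label (SD, n = 3 each; log2 difference -0.16 ± 0.05, SE; limma adjusted p = 0.0353). Its adjusted p was 0.0830 and 0.1 without replicates 2 and 3 labelled allo-HSCT, and 0.0994 and 0.106 without replicates 2 and 3 labelled syn-HSCT. Abce1, which encodes a ribosome recycling factor, averaged 22.0 ± 0.54 FPKM with the allo-HSCT label against 23.5 ± 0.73 FPKM with the syn-HSCT label and was not called (limma adjusted p = 0.0571, with 0.0267 to 0.165 over 16 alternatives). Akap7, whose product can cleave oligoadenylates in the mouse, averaged 0.518 ± 0.13 FPKM with the allo-HSCT label against 0.189 ± 0.07 FPKM with the syn-HSCT label and was below the filter.

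Of the listed genes upstream of the family and other interferon targets, most were higher in the allo-HSCT-labelled libraries. These lists were chosen with earlier results of these data known, so their counts and p-values are a description. Over all genes tested, 34.7% were called higher and 33% lower. Of 17 genes of interferon receptors and signalling, 14 were called higher, 1 lower, and 2 (Irf2 and Irf3) were not called, with a median log2 difference of 0.57, where the median over all genes tested was 0.008. Irf7, the factor that amplifies type I interferon genes, averaged 44.0 ± 1.82 FPKM with the allo-HSCT label against 14.2 ± 0.15 FPKM with the syn-HSCT label (SD, n = 3 each; limma adjusted p = 1.36e-07). Ifnar2, a chain of the type I interferon receptor, was 4.29-fold higher (28.1 FPKM with the allo-HSCT label against 6.55 FPKM with the syn-HSCT label; adjusted p = 4.14e-08), and Irf8, a factor of dendritic cells and macrophages, was 7.88-fold higher (162 FPKM with the allo-HSCT label against 20.5 FPKM with the syn-HSCT label; adjusted p = 2.02e-08). Ifngr1, a chain of the interferon gamma receptor, went the other way, at 105 FPKM with the allo-HSCT label against 195 FPKM with the syn-HSCT label (adjusted p = 1.25e-07). The dendritic cell markers and the tested monocyte and macrophage markers given above were called higher, as most of the 17 genes were. The part of such cells in these differences was not tested.

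Of the nucleic acid sensor list, 14 of 15 genes were in the table. Of these 11 were called higher, 2 lower, and Eif2ak2, the gene of the kinase PKR, which like the synthetases is triggered by double-stranded RNA, was not called, at 9.06 FPKM with the allo-HSCT label against 8.63 FPKM with the syn-HSCT label (limma adjusted p = 0.223). The list median was 0.52. Tlr3, an endosomal receptor for double-stranded RNA, was at 22.6 ± 1.27 FPKM with the allo-HSCT label against 1.16 ± 0.07 FPKM with the syn-HSCT label (SD, n = 3 each; adjusted p = 4.15e-08), and Tlr9, a receptor for DNA, at 6.47 FPKM with the allo-HSCT label against 0.346 FPKM with the syn-HSCT label (adjusted p = 1.28e-06). Dhx58, a regulator of RIG-I-like receptors, was 2.06-fold higher (adjusted p = 5.61e-06), and Samhd1, a nucleotide hydrolase, 1.43-fold higher (adjusted p = 2.69e-06). Ifih1, which encodes the RNA sensor MDA5, fell to 4.54 FPKM in the allo-HSCT-labelled libraries, against 6.24 FPKM in the syn-HSCT-labelled ones (adjusted p = 0.000608). Tmem173, which encodes the adaptor STING, fell to 39.95 FPKM in the allo-HSCT-labelled libraries, against 45.75 FPKM in the syn-HSCT-labelled ones (adjusted p = 0.00398).

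Of 43 antiviral interferon-stimulated genes, 42 were tested, 34 were called higher, 3 lower and 5 (Isg20, Cmpk2, Lgals3bp, Parp9 and Phf11b) were not called, with a median log2 difference of 0.63. Ifi44l was at 17.3 ± 0.36 FPKM with the allo-HSCT label against 0.166 ± 0.03 FPKM with the syn-HSCT label (SD, n = 3 each; limma adjusted p = 1.98e-08), and the related Ifi44 at 6.13 FPKM with the allo-HSCT label against 0.132 FPKM with the syn-HSCT label (adjusted p = 2.83e-07). Parp12 was 5.51-fold higher (adjusted p = 2.12e-07) and Trim30a 2.44-fold higher (adjusted p = 2.43e-07). Epsti1 was at 109 FPKM with the allo-HSCT label against 170 FPKM with the syn-HSCT label (adjusted p = 2.52e-06), and Trim30d at 0.708 FPKM with the allo-HSCT label against 2.20 FPKM with the syn-HSCT label (adjusted p = 0.000634). Gbp3 was at 19.4 FPKM with the allo-HSCT label against 21.5 FPKM with the syn-HSCT label (adjusted p = 0.0447), a call lost without any 1 of replicates 1 to 3 labelled allo-HSCT (0.0779, 0.0943 and 0.110), and likewise when replicate 2 or 3 labelled syn-HSCT was left out (0.104 and 0.115). Xaf1, among the 34 called higher, was as near the threshold (limma adjusted p = 0.0494). Its call was lost in 10 of 16 alternatives. These included leaving out any 1 library, with an adjusted p of 0.0523 to 0.142. The members were set against these 42 genes by log2(FPKM + 1) difference, a scale that compresses low values. Oasl1 was exceeded by 3, Oas2 by 4, Oasl2 by 13 and Oas3 by 28, and Oas1a lay below all 42. Because the members were chosen with this contrast known, nothing is read from these places.

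**Figure D3:**
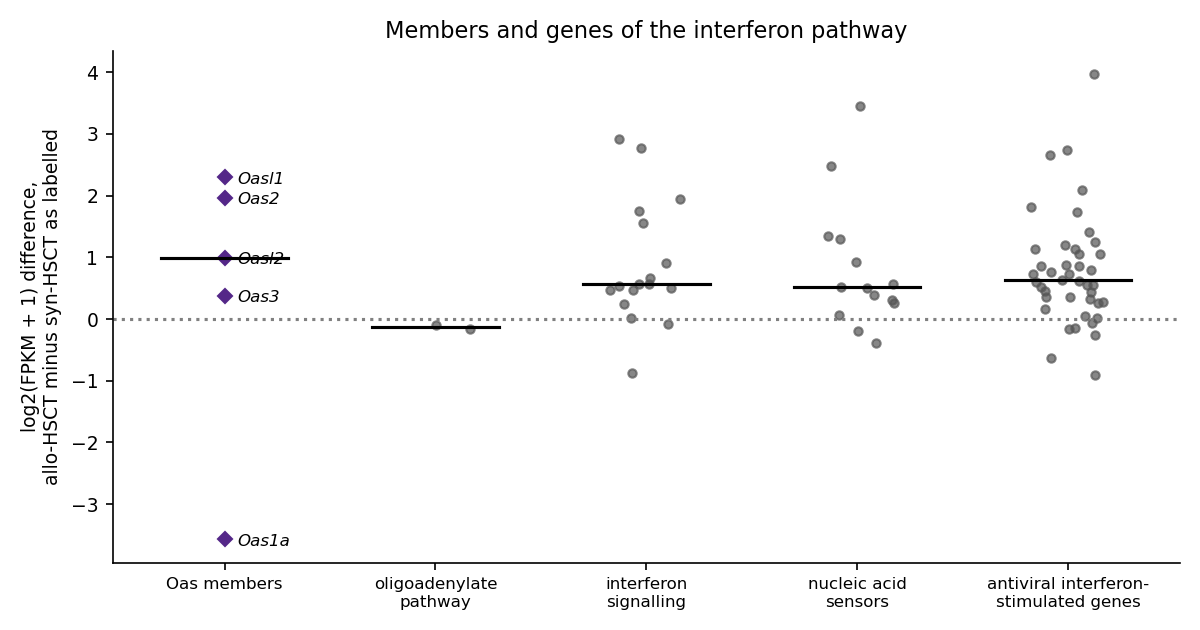
Log2(FPKM + 1) differences, allo-HSCT-labelled libraries minus the syn-HSCT-labelled ones, for the 5 members (diamonds) and for tested genes of 4 pathway lists (points), with the median of each as a line. Medians are -0.12 for the oligoadenylate pathway and 0.57, 0.52 and 0.63 for the other lists, and Oas1a at -3.57 lies below every gene plotted.

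Position along chromosome 5 was examined with genes whose annotated bounds lie within 250 kb of a member. Of 24 such genes in the table, Oas1b and Oas1c among them, 22 were tested. Of these 12 were called higher and 6, with both of these Oas loci, lower. Over all genes tested, 34.7% were called higher and 33% lower. The median log2 difference of the 22 genes was 0.16, and they ranged from -1.53 for Oas1b to 2.14 for Slc8b1. Slc8b1, a mitochondrial sodium-calcium exchanger gene 196 kb from Oas2, was at 57.5 ± 4.57 FPKM with the allo-HSCT label against 12.3 ± 0.31 FPKM with the syn-HSCT label (SD, n = 3 each; limma adjusted p = 2.70e-07). Ptpn11, which encodes the phosphatase SHP2 and lies 223 kb from Oas1a, was at 26.4 ± 0.53 FPKM with the allo-HSCT label against 45.8 ± 1.11 FPKM with the syn-HSCT label (SD, n = 3 each; adjusted p = 1.17e-06). Dtx1, 18.4 kb from Oas2, was at 31.9 FPKM with the allo-HSCT label against 27.0 FPKM with the syn-HSCT label (adjusted p = 0.00262). The gene next to Oasl1, 2210016L21Rik at a distance of 4.24 kb, fell to 5.69 FPKM in the allo-HSCT-labelled libraries, against 7.87 FPKM in the syn-HSCT-labelled ones (adjusted p = 0.0051). Within the Oas cluster the log2 differences ran from 1.97 for Oas2 through 0.37 for Oas3, -0.25 for Oas1c and -1.53 for Oas1b to -3.57 for Oas1a, which is also the order of these genes on the chromosome. Of 12 listed mouse Oas loci only 7 have a row, so this order leaves out loci without one. Oas1b and Oas1c were added after values were seen, and a trend with position was not tested.

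**Figure D4:**
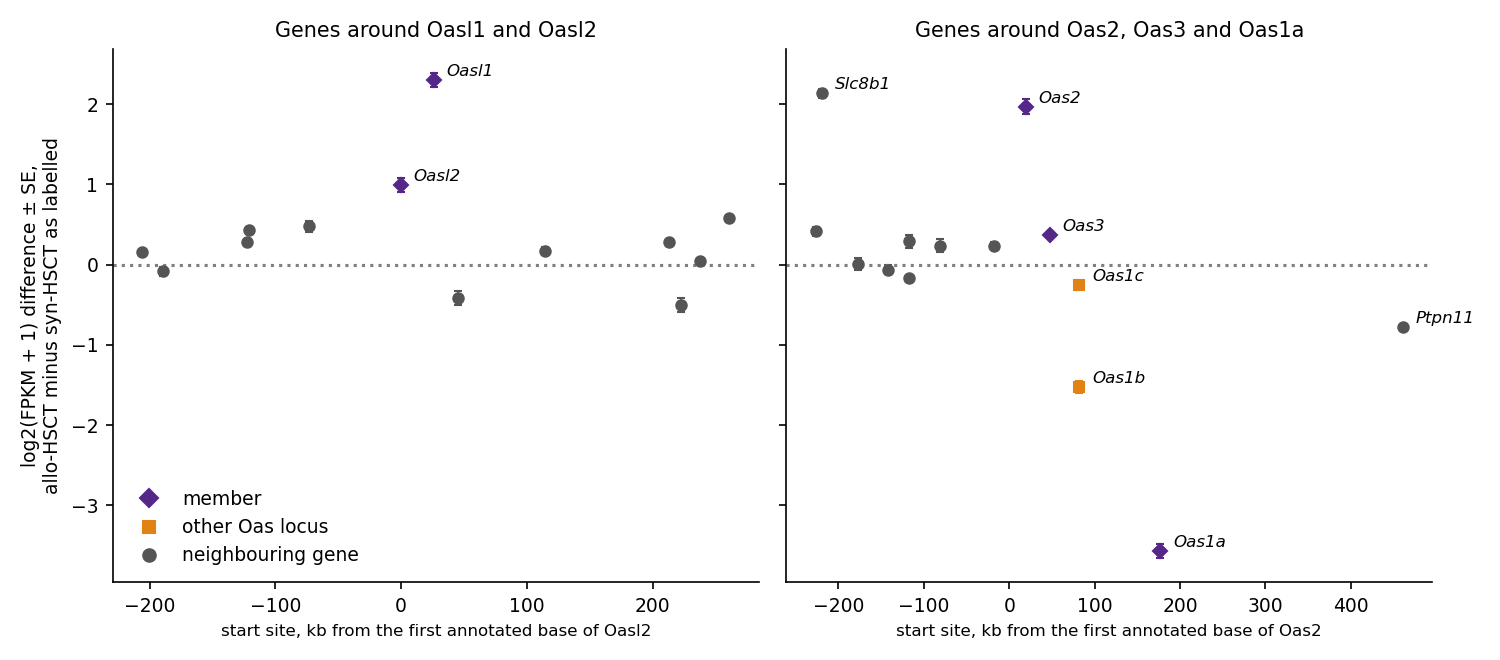
Log2(FPKM + 1) difference ± SE, allo-HSCT-labelled libraries minus the syn-HSCT-labelled ones, of tested genes within 250 kb of a member, against the distance of each start site in kb from the first annotated base of Oasl2 (left) or Oas2 (right). In the right panel the Oas loci with a row descend from 1.97 at Oas2 to -3.57 at Oas1a. Neighbouring genes (grey) run from -0.77 at Ptpn11 to 2.14 at Slc8b1. Several others, such as Mlec at 0.578 and Acads at -0.505, differ by more than the member Oas3 at 0.372.

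The genes with the most similar profiles were taken as the 3 with the smallest Euclidean distance between centred log2(FPKM + 1) values over the 6 libraries, among the 10150 tested genes that are no member, predicted model, receptor segment, small RNA or pseudogene. For Oas1a they were Trim12a (distance 0.219), Ly6a (0.232) and Spock2 (0.299), where the profile of Oas1a itself had a length of 4.38. Ly6a is among the strain genes given above. For Oas2 they were Clnk (0.0699), Ms4a4c (0.133) and Zfp395 (0.140), for a profile of 2.43. Those of Oasl1 were Plekha1 (0.120), Kmo (0.132) and Tnfaip2 (0.144), for a profile of 2.82. For Oasl2 the list was Clec4e (0.0768), Mapk7 (0.0864) and Trp53inp1 (0.0889), for a profile of 1.22, and for Oas3 it was Traf3 (0.0339), Sorl1 (0.0446) and Ncoa5 (0.0479), for a profile of 0.463. With 2 groups of 3 libraries, such likeness mostly states that a gene has about the same log2(FPKM + 1) difference between the groups. That scale compresses low values, so the ratios can be far apart. The ratio of mean FPKM, allo-HSCT label over syn-HSCT label, was 0.0021 for Oas1a and 0.086 for Ly6a.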

How the data were processed

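RNA of 6 libraries was given as 1 table of 14750 genes. The authors deposited what the values show to be FPKM, fragments scaled by them to gene length and depth, although no header or label names the unit: multiplied by the exon length in GENCODE vM21 (14730 identifiers matched, 20 did not) 94.3% to 94.6% of values above 0 in a column were whole multiples of a constant, within 0.1 fragments. Aligner, counter, strandedness and build are not given in the sources used here. Limma is the tool named by the submitters' processing notes. Genes averaging under 0.5 FPKM in both groups are not in the table. Replicates differed by more than sampling noise, with a median squared difference 2.32 to 2.47 times its counting expectation at 200 to 1000 fragments.

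The 12404 genes reaching 1 FPKM in 3 or more libraries were fitted as log2(FPKM + 1) with limma 3.58.1 in R 4.3.3 (eBayes with trend, no covariates), and a Benjamini-Hochberg adjusted p under 0.05 was called. The script was tested on simulated data. Groups follow the label of donor and host strain. Members and gene lists were chosen with earlier results of these data known. Genes named are the members, the oligoadenylate pathway list (1 gene of it is not reported here), up to 4 genes a list with the smallest p, up to 4 called against the majority of their list, neighbours within 250 kb, and the 3 nearest profiles. Uncalled genes of a list, the unstable call of Xaf1, Oas1b and Oas1c as family members, and the near-zero count were added after values were seen. Shared 50-base stretches were counted in GENCODE vM21 transcripts, and RefSeq start windows were searched as text. Alternatives were leaving out each library, a block for the replicate number, a filter at 5 FPKM or none, pseudocounts of 0.1 and 0.01, quantile and TMM-type scaling, eBayes without trend or robust, and voom on recovered fragments.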

Additional observations from a re-analysis of the deposited data

How the results depend on the processing

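The 5 members kept their direction under all 16 alternatives (15 for Oasl2, which a filter at 5 FPKM removes). Most of these could not have changed it. Where groups do not overlap, leaving out a library or changing the pseudocount cannot reverse a direction. The block, filter and eBayes settings leave the log2 difference itself as it was. Only quantile and TMM-type scaling and the fit to recovered fragments could have reversed a direction. Their log2 differences ranged from -8.69 to -3.50 for Oas1a, 1.79 to 2.70 for Oas2, 0.35 to 0.40 for Oas3, 2.07 to 3.33 for Oasl1 and 0.60 to 2.17 for Oasl2, with the extremes at the pseudocount of 0.01, the fit to recovered fragments and quantile normalization for all but Oas3 and the upper value of Oas1a. Genes called higher numbered 4298, and 2817 with a filter at 5 FPKM, where fewer genes are tested. In the oligoadenylate pathway list 1 gene was called, 0 to 1 when a library was left out, 0 with the replicate number as a block, and 2 with no filter, TMM-type factors or recovered fragments. Called genes otherwise stayed within 1.5 times of the count given: 3248 to 4790 lower, 14 to 16 for interferon signalling, 11 to 13 for sensors, 31 to 39 for interferon-stimulated genes and 15 to 20 for neighbours. The numbers do not pair the libraries: deviations of same-numbered libraries correlated at 0.0627, 0.122 and -0.083, and the labels do not tie a number to an animal. Depth limits Oas1a in the libraries labelled allo-HSCT, with 0 to 1 fragments each, and Oasl1 and Oasl2 in those labelled syn-HSCT, with 27 to 53.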
